A study of Homo sapiens with 28 samples.

Results

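The receptors for lysophosphatidic acid (LPA) and sphingosine 1-phosphate (S1P) were followed in 24 RNA-seq libraries from human CRC cell lines. Rows of both count tables were taken when their gene identifier belonged to LPAR1, LPAR2, LPAR3, LPAR4, LPAR5, LPAR6, S1PR1, S1PR2, S1PR3 or S1PR5, and all 10 genes were found among the 62703 genes of each table. The family was selected on the counts of S1PR3 and LPAR1 in TWIST1 knockout clones, which lay under those of WT cells, so receptor differences between clones and WT cells are described with no p-value, and their calls are only counted once beside those of all genes. The libraries held 3 samples each of MDST8 wild type (WT) cells, of TWIST1 knockout clones 1.1, 2.2, 3.2, 3.5 and 3.6 of the same line, and of LoVo cells labelled shRNA control or TWIST1 shRNA. Titles of the LoVo samples read control and TWIST1 KD, and the paper describes its comparison as knockdown against wild-type LoVo. MDST8 is a CMS4 line, the stromal and mesenchymal subtype of CRC, and LoVo is a CRC line outside that subtype. The knockout was made by electroporating Cas9 with guides against TWIST1, and each clone grew from a single sorted cell, so the 3 libraries of a clone share that cell. Sample titles give clones 3.2, 3.5 and 3.6 a shared name and clones 1.1 and 2.2 names of their own. They do not state the guide of each clone. The labels give DMEM with 10% FBS for all samples, and serum carries both LPA and S1P. Nothing in the labels says whether the 3 libraries of a group came from separate cultures, and p-values therefore measure only the spread between these libraries, which may be technical.

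LPA and S1P are lipids with a single acyl or sphingoid chain that circulate in serum and act through G protein-coupled receptors. LPAR1, LPAR2 and LPAR3 are close relatives of the S1P receptors, whereas LPAR4, LPAR5 and LPAR6 belong to a separate branch near the purinergic receptors. Depending on the receptor, the signal passes through Gi, Gq or the G proteins that activate RhoA, and it shapes contraction, migration, survival and epithelial barriers. S1PR1 signals through Gi and is best known for lymphocyte exit and vessel stability.

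Total counts ran from 16567606 to 22217009 per library. TWIST1 mRNA persisted in the clones, at 553 to 1195 counts per library against 797 to 1034 in WT. A small deletion or insertion need not lower an mRNA, so TWIST1 counts do not check the knockout labels. In LoVo the 3 libraries labelled shRNA control held 0, 0 and 0 counts of TWIST1, and those labelled TWIST1 shRNA held 73, 89 and 93. With a floor of 3 counts per library for the control, TWIST1 mRNA of the latter was higher by at least 27.9-fold. The TWIST1 counts thus go against the labels, and LoVo directions are stated by label throughout. Replicate 1 of the TWIST1 shRNA label stood apart from replicates 2 and 3, with a mean chi-square per gene of 23.3 and 35.8 against 4.74 between replicates 2 and 3. Mitochondrial genes took 10.9% of its counts, against 6.24 and 5.47% in replicates 2 and 3 and 3.49 to 3.96% in the shRNA control libraries. Of 9 epithelial markers, 9 reached a mean of 1 CPM in both LoVo groups but 2 did in each MDST8 group, where CDX1 was at 0. All 4 mesenchymal markers reached it in each MDST8 group. The summed epithelial markers were 7436 to 7719 CPM in LoVo shRNA control and 3823 to 4237 in the TWIST1 shRNA-labelled libraries. The summed mesenchymal markers were 175 to 180 CPM and 42.2 to 47.9 CPM in the same order, with VIM at 110 and 11.7. Markers of other cell types summed to 2.49 to 5.15 and 53.3 to 79.5 CPM, almost all of it COL1A1 at 3.18 and 65 CPM, while CD3E and DCN were at 0 in both groups. The part of mitochondrial share or of these markers in the LoVo receptor differences was not tested. In bulk RNA, fewer cells of a type and less RNA per cell cannot be told apart.

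The DNA just before the receptor genes is shown because TWIST1 is a basic helix-loop-helix factor that binds E-boxes, and because peaks of TWIST1 ChIP-seq were listed in both lines. The 4 windows each hold the 250 bases before the gene's 5′ end in hg38, on the gene's strand, 5′ to 3′, with every CANNTG in capitals. S1PR3 (chr9:88990613-88990862, plus strand) and LPAR1 (chr9:111038471-111038720, minus strand) are the receptors that were low in clones. LPAR3 (chr1:84893207-84893456, minus strand) had the widest LoVo difference, and S1PR2 (chr19:10231332-10231581, minus strand) is the receptor whose window holds CATCTG.
S1PR3: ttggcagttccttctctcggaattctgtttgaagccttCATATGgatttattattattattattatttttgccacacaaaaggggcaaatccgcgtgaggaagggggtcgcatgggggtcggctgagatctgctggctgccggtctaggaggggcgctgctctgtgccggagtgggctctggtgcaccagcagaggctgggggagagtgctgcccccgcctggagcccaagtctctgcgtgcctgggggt
LPAR1: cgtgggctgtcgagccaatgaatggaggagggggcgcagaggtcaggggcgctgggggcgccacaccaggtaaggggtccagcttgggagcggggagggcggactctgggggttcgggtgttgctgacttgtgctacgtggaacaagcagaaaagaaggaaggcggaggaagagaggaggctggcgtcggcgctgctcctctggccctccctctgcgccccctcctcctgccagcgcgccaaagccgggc
LPAR3: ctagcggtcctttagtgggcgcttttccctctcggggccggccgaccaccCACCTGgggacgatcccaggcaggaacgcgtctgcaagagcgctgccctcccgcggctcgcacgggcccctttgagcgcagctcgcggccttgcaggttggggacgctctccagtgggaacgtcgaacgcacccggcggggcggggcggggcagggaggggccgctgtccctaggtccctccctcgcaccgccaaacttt
S1PR2: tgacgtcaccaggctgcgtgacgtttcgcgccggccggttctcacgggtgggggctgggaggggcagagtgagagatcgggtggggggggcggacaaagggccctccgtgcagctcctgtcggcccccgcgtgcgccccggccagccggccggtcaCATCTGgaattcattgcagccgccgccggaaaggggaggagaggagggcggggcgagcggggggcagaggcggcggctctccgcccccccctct
None of these windows overlapped an annotated exon, and each was identical to a RefSeq promoter of GRCh38.p14. CANNTG reads the same on both strands as a pattern, and CATCTG was also searched as CAGATG. The LPAR1 window held no CANNTG in these letters, whereas S1PR3 held CATATG, LPAR3 held CACCTG and S1PR2 held CATCTG. This contrast covers only the windows shown. Among other RefSeq promoters of LPAR1, chr9:111036781-111037030 and chr9:111038741-111038990 each held 1 match, and chr9:111038999-111039248 held 2. Those of chr9:111037630-111037879 and chr9:111038088-111038337 held none. Another RefSeq promoter of S1PR3, chr9:88991218-88991467, held none either. Of 35116 RefSeq promoters of the same length, 61.8% held CANNTG and 12.2% held CATCTG on either strand, so a match is common and is only a description.

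The make-up of the family differed between the lines. On the scale of CPM per kb of exon, which allows genes to be compared, WT MDST8 was led by LPAR1 at 8.74 ± 0.31 and S1PR1 at 6.72 ± 0.02 (SD, n = 3 each). S1PR2 followed at 3.2 ± 0.15 and LPAR2 at 2.19 ± 0.16, and no library of these 4 genes reached into the range of the next. LPAR6, LPAR3, S1PR5, S1PR3 and LPAR4 lay between 0.21 and 0.56 CPM per kb, where the ranges of LPAR6 and LPAR3, of S1PR5 and S1PR3, and of S1PR3 and LPAR4 overlapped. The scale depends on the annotated exon length, which is 13702 bp for S1PR3 against 2771 to 5223 bp for the other receptors. In CPM without length, S1PR3 (3.78) stood above LPAR6 (2.42) in WT. LPAR5 had no count in WT, which allows up to 3 counts per library. LoVo shRNA control cells were instead led by LPAR2 at 9.49 ± 1.0 CPM per kb, S1PR2 at 5.35 ± 0.27 and LPAR5 at 1.75 ± 0.48. In the TWIST1 shRNA-labelled libraries, LPAR3 came first at 11.4 ± 1.17, ahead of LPAR2 at 9.42 ± 0.36, and S1PR2, LPAR5, S1PR5 and LPAR1 followed, with overlapping ranges between successive genes. Counted without strand, LPAR6 lies inside RB1 on the opposite strand with no shared exon base, whereas S1PR2 shares 83 exon bases with DNMT1, so its counts are uncertain by that stretch.

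**Figure D1:**
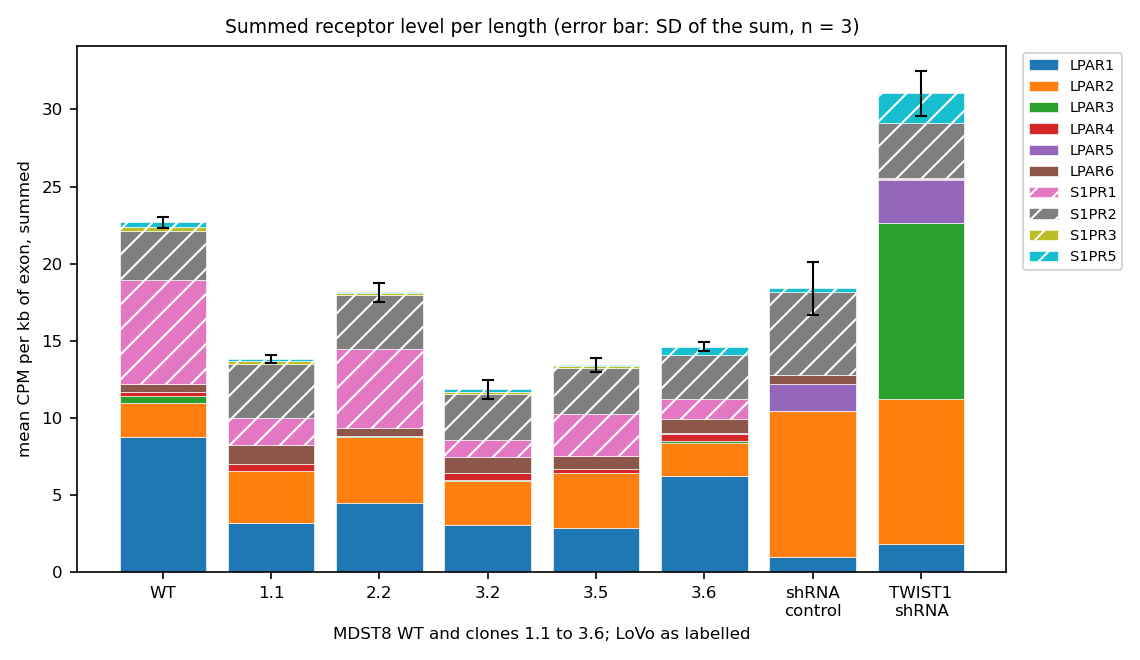
Mean level of the 10 receptors in CPM per kb of exon, stacked for each of the 8 groups (x axis), with S1P receptors hatched and the SD of the summed level (n = 3) as error bars. The sum was 22.7 in WT, 11.8 to 18.1 in the clones, 18.4 in LoVo shRNA control and 31.1 in TWIST1 shRNA-labelled LoVo libraries.

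Summed over the 10 receptors, WT MDST8 carried 22.7 ± 0.38 CPM per kb and the clones 11.8 ± 0.62 (clone 3.2) to 18.1 ± 0.62 (clone 2.2), SD, n = 3 each. LPA receptors made up 53.8 ± 1.02% of the WT sum, 51.5 ± 2.88% in clone 2.2 and 67.8 ± 2.64% in clone 3.6 (SD, n = 3). In LoVo they made up 69.2 ± 1.34% in shRNA control and 82.0 ± 2.32% in the TWIST1 shRNA-labelled libraries. The sums are given as a description, since the clones contributed to the choice of the family.

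LPAR1 (ENSG00000198121.15, chromosome 9, 110873263 to 111038470, minus strand, hg38) is the most widely expressed LPA receptor and a driver of cell migration. Its counts were 663, 708 and 745 in WT libraries A to C. Clones 1.1, 3.2 and 3.5 held 215 to 312, clone 2.2 held 348, 390 and 343, and clone 3.6 held 533, 528 and 581. All 15 clone libraries lay below all 3 WT libraries in CPM, as they did for 14.2% of the genes tested, and clone 3.6 lay nearest to WT. LPAR1 measured 36.1 ± 1.29 CPM in WT, 11.9 ± 0.66 in clone 3.5 and 25.7 ± 1.44 in clone 3.6 (SD, n = 3 each). The log2 fold changes against WT were -1.46, -0.99, -1.54, -1.62 and -0.49 in clones 1.1, 2.2, 3.2, 3.5 and 3.6. In LoVo, LPAR1 held 67, 66 and 69 counts in shRNA control and 147, 116 and 135 in the TWIST1 shRNA-labelled libraries. The groups did not overlap, as was so for 79.6% of the genes tested in LoVo. The difference was 0.97 on the log2 scale (standard error, SE, 0.17). The paper lists LPAR1 among genes lowered in both knockout and knockdown cells, and by label the LoVo direction was the opposite. That list was drawn from both lines, so the LoVo value is not independent and is given with no test.

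S1PR3 (ENSG00000213694.7, chromosome 9, 88990863 to 89005155, plus strand) couples to several G protein classes and is known from smooth muscle and fibroblasts. WT libraries held 60, 90 and 72 counts. Clone 1.1 held 49, 70 and 51, clone 2.2 held 34, 28 and 38, clone 3.2 held 34, 32 and 25, and clone 3.5 held 30, 21 and 37. No count was found in any library of clone 3.6. The gene was low in all groups, at 3.78 ± 0.70 CPM in WT and 2.85 ± 0.37 in clone 1.1 (SD, n = 3). Of 15 clone libraries, 14 lay below all WT libraries, the exception being in clone 1.1. All 15 did for 14.2% of the genes tested, and the share with 14 was not counted. The log2 fold changes were -0.41, -1.16, -1.35 and -1.27 in clones 1.1, 2.2, 3.2 and 3.5. With a floor of 3 counts for each library of clone 3.6, S1PR3 was lower there by at least 26.8-fold. LoVo libraries held 0 or 1 count each, and the gene was not tested there.

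S1PR1 (ENSG00000170989.10, chromosome 1, 101236865 to 101243713, plus strand) followed LPAR1 in WT cells per length, with 664, 697 and 693 counts. Clone 2.2 held 482, 532 and 552 counts and clone 3.5 held 277, 258 and 250. Clone 1.1 held 201, 191 and 167, clone 3.6 held 166, 119 and 144, and clone 3.2 held 120, 129 and 114. All 15 clone libraries lay below WT in CPM, as they did for 14.2% of the genes tested. WT measured 35.1 ± 0.13 CPM, clone 2.2 measured 26.6 ± 2.26 and clone 3.2 measured 5.93 ± 0.58 (SD, n = 3 each). Against WT this was a log2 fold change of -2.57 in clone 3.2 and -0.41 in clone 2.2, and -1.90, -1.32 and -2.39 in clones 1.1, 3.5 and 3.6. The 5 clones differed from each other (adjusted p = 6.79e-20 by the quasi-likelihood F test of edgeR, adjusted after Benjamini and Hochberg). By this test 81% of all genes tested differed among the clones. In LoVo, S1PR1 held 4, 5 and 4 counts in shRNA control and 5, 5 and 0 in the TWIST1 shRNA-labelled libraries, too few to be tested.

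**Figure D2:**
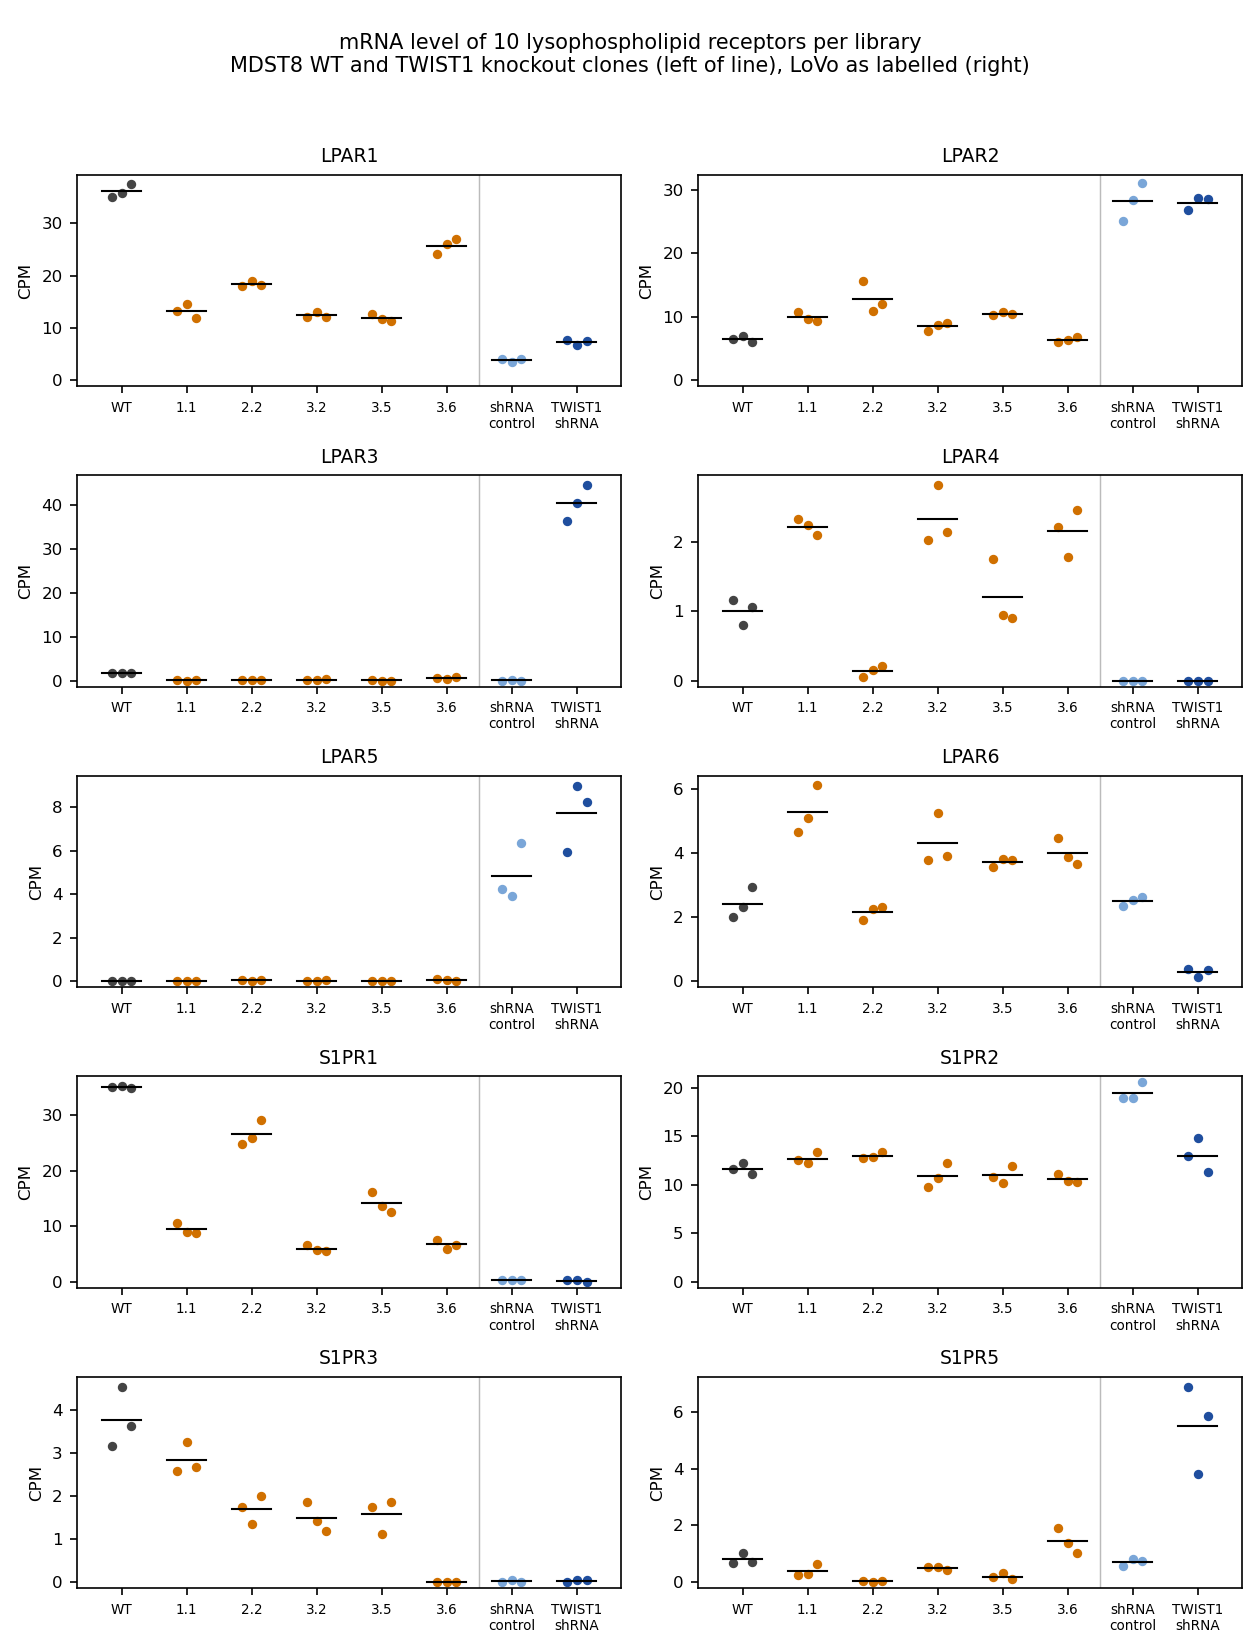
CPM (y axis, linear and separate for each receptor) in every library of the 8 groups (x axis), with points for libraries and a bar for the mean of 3. LPAR1 and S1PR1 of all clone libraries lie below WT, S1PR3 is at 0 in clone 3.6, and LPAR3 lies between 36.4 and 44.6 CPM in TWIST1 shRNA-labelled LoVo libraries.

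LPAR3 (ENSG00000171517.6, chromosome 1, 84811602 to 84893206, minus strand), a receptor known for its part in embryo implantation, was scarce in MDST8 and changed most between the LoVo groups. WT libraries held 33, 35 and 34 counts, and the clone libraries held 0 to 15. All 15 clone libraries lay below WT, as they did for 14.2% of the genes tested. LPAR3 itself missed the filter for testing in MDST8, at 0.36 RPM against a minimum of 1. WT measured 1.74 ± 0.03 CPM, and clones 2.2, 3.2 and 3.6 measured 0.153 ± 0.006, 0.227 ± 0.135 and 0.527 ± 0.206 (SD, n = 3 each). Clones 1.1 and 3.5 held the fewest counts. The ratio of WT over clone 1.1 was 51.7 (95% interval 14 to 433, from 102 and 2 counts), and that of WT over clone 3.5 was 48.7 (13.1 to 407, from 102 and 2 counts). In LoVo shRNA control it held 0, 1 and 0 counts, and in the TWIST1 shRNA-labelled libraries 698, 693 and 801. The latter amounted to 40.5 ± 4.12 CPM (SD, n = 3), the highest level of LPAR3 in any group. The ratio scaled for depth was 2156 (95% interval 387 to 85211, from 2192 and 1 counts), an interval that covers counting error only. The fitted log2 fold change was 10.65 (SE 0.27). LPAR3 passed the filter only through the group where it was high, so it had to differ and no p is given. With 1 count in the control group the fitted value depends on the prior count, and the ratio of counts is the better guide to its size.

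S1PR5 (ENSG00000180739.15, chromosome 19, 10512742 to 10517931, minus strand) is best known from natural killer cells and oligodendrocytes. It held 9, 16 and 13 counts in LoVo shRNA control and 132, 65 and 105 in the TWIST1 shRNA-labelled libraries. The lowest of the latter, replicate 2, was still above all control libraries, and LoVo groups did not overlap for 79.6% of the genes tested. The level went from 0.70 ± 0.14 to 5.51 ± 1.57 CPM (SD, n = 3 each), a log2 fold change of 2.98 (SE 0.30). It too passed the filter only through its high group, and no p is given. In MDST8 it stayed under the filter at 0.50 RPM, with 13, 20 and 14 counts in WT, 0 or 1 in clone 2.2 and 42, 28 and 22 in clone 3.6. The ratio of WT over clone 2.2 was 23.6 (95% interval 6.19 to 201, from 47 and 2 counts), while the 3 libraries of clone 3.6 lay above WT.

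LPAR6 (ENSG00000139679.16, chromosome 13, 48389567 to 48444704, minus strand), whose loss causes inherited hair loss, moved the other way in LoVo. It held 38, 50 and 46 counts in shRNA control and 7, 2 and 6 in the TWIST1 shRNA-labelled libraries. These groups did not overlap, as was so for 79.6% of the genes tested in LoVo. The level went from 2.50 ± 0.15 to 0.27 ± 0.14 CPM (SD, n = 3 each), a log2 fold change of -3.12 (SE 0.38). It passed the filter only narrowly, at 1.07 RPM, and only through the control group, so no p is given. In MDST8 it measured 2.42 ± 0.47 CPM in WT, 5.28 ± 0.75 in clone 1.1 and 2.16 ± 0.22 in clone 2.2 (SD, n = 3). Against WT the log2 fold changes ranged from -0.18 in clone 2.2 to 1.12 in clone 1.1, and 12 of 15 clone libraries lay above WT. All 15 lay above WT for 13.2% of the genes tested, and the share with 12 was not counted. The clones differed from each other (adjusted p = 4.45e-06, edgeR's F test), as did 81% of all genes tested.

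LPAR5 (ENSG00000184574.10, chromosome 12, 6618835 to 6635960, minus strand) is known from immune and intestinal cells, and it was near 0 in MDST8, where libraries held 0 to 2 counts each. LoVo shRNA control held 69, 77 and 111 counts and the TWIST1 shRNA-labelled libraries 114, 154 and 148. In CPM the groups overlapped, since shRNA replicate 1 lay below control replicate C. The log2 fold change was 0.70 (SE 0.21, adjusted p = 0.0062 by the quasi-likelihood test of edgeR, adjusted after Benjamini and Hochberg). It fell short of the threshold of 0.58, at 0.576 without control replicate B and just under it without TWIST1 shRNA replicate 2.

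LPAR2 (ENSG00000064547.14, chromosome 19, 19623655 to 19628930, minus strand), a receptor often raised in intestinal tumours, was steady between the LoVo groups and variable among clones. LoVo shRNA control held 409, 559 and 544 counts and the TWIST1 shRNA-labelled libraries 514, 493 and 512. The levels were 28.2 ± 3.01 and 28.0 ± 1.09 CPM (SD, n = 3 each), with a log2 fold change of 0.02 (SE 0.09, adjusted p = 0.872, same edgeR test). In MDST8 it measured 6.51 ± 0.49 CPM in WT, 6.39 ± 0.43 in clone 3.6 and 12.8 ± 2.50 in clone 2.2, where replicate A stood above replicates B and C. The clones differed (adjusted p = 7.79e-08, edgeR's F test), as did 81% of all genes tested, and 12 of 15 clone libraries lay above WT. For 13.2% of the genes tested all 15 did, and the share with 12 was not counted.

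LPAR4 (ENSG00000147145.14, chromosome X, 78747709 to 78758714, plus strand) acts in blood and lymph vessels. It had no count in any LoVo library and held 22, 16 and 21 counts in WT MDST8. Clone 2.2 held 1, 3 and 4 counts, whereas clone 1.1 held 44, 48 and 40, clone 3.2 held 37, 63 and 45 and clone 3.6 held 49, 36 and 53. Clone 3.5, at 30, 18 and 18, overlapped WT. The log2 fold changes of 1.13, 1.21 and 1.09 in clones 1.1, 3.2 and 3.6 thus stood against -2.85 in clone 2.2. LPAR4 passed the filter at 1.35 RPM, a value raised by clones 1.1, 3.2 and 3.6, where it was high. No p is therefore given for its difference among clones, and 81% of all genes tested differed among them.

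S1PR2 (ENSG00000267534.4, chromosome 19, 10221433 to 10231331, minus strand), which signals through RhoA and restrains migration in many cells, was the most even member. It measured 11.7 ± 0.56 CPM in WT and 10.6 ± 0.48 to 13 ± 0.35 in the clones (SD, n = 3 each), and its log2 fold changes stayed between -0.14 and 0.14. The clones still differed by the F test (adjusted p = 0.0131, edgeR), as did 81% of all genes tested. In LoVo it held 308, 371 and 360 counts in shRNA control and 248, 254 and 202 in the TWIST1 shRNA-labelled libraries. The log2 fold change of -0.55 (SE 0.11, adjusted p = 2.83e-04, same edgeR test) lay short of the fold threshold. The groups did not overlap, as was so for 79.6% of the genes tested in LoVo. The fold change passed the threshold with no filter on low counts, at -0.61, and without TWIST1 shRNA replicate 2, at -0.66.

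Calls required an adjusted p below 0.05 and a log2 fold change beyond 0.58 in either direction. Of the 10 receptors, 7 were tested in LoVo, and of these 4 were called higher and 1 lower in the TWIST1 shRNA-labelled libraries. The background was high, as 52.7% of the 14270 genes tested were called, 26.6% higher and 26.1% lower. LPAR3, S1PR5 and LPAR6 are among those called and entered only through the group where they were high, so nothing is read from this count. The median log2 fold change over all genes was 0.01. LoVo groups did not overlap for 79.6% of genes. Without TWIST1 shRNA replicate 1 the same count of 5 receptors was called, with log2 fold changes of 10.73 for LPAR3, 2.79 for S1PR5, 0.95 for LPAR1, 0.88 for LPAR5 and -3.38 for LPAR6. In MDST8, 7 of 10 receptors were tested and 23 of 35 receptor-by-clone comparisons were called, 10 higher and 13 lower, where 19.3% of all gene-by-clone comparisons were called. By clone, 3 receptors were called higher and 2 lower in clone 1.1, where 12% and 7.49% of genes were, 19.5% in all. In clone 2.2 it was 1 and 3, beside 8.05% and 6.64% (14.7% in all), and in clone 3.2 it was 2 and 3, beside 10.9% and 6.09% (17% in all). Clone 3.5 had 2 and 3, beside 11.2% and 7.25% (18.5% in all), and clone 3.6 had 2 and 2, beside 15.3% and 11.7% (27% in all). LPAR1 and S1PR3, on which the family was selected, were each lower in 4 clones. Nothing is read from the counts. LPAR1 also lay above control in LoVo, and 6.61% of genes tested in both lines lay below WT in all clone libraries and above control in LoVo. Among the clones, all 5 receptors tested by the F test (LPAR2, LPAR4, LPAR6, S1PR1 and S1PR2) differed, as did 81% of all genes tested. LPAR4 passed the filter with the clones where it was high, so nothing is read from its part in this count.

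**Figure D3:**
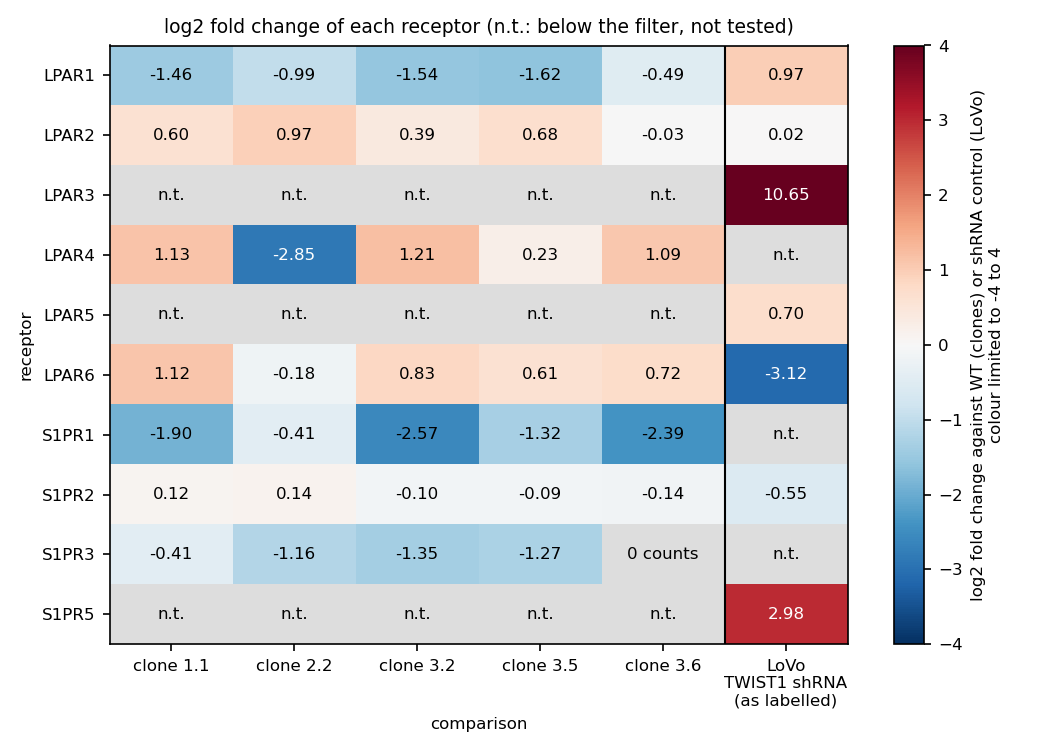
The log2 fold change of each receptor (rows) in the 5 clones against WT and in TWIST1 shRNA-labelled LoVo libraries against shRNA control (columns), from edgeR, with grey for receptors under the filter and for S1PR3 in clone 3.6, which has no count. S1PR1 and LPAR1 are negative in all 5 clones, and LPAR3 (10.65) and LPAR6 (-3.12) mark the ends of the LoVo range.

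The level of LPAR1 over the 18 MDST8 libraries was most like that of CHRAC1, CD55 and MTHFD2 among 11923 protein-coding genes, with Pearson's r of 0.958, 0.958 and 0.952 on log2(CPM + 0.5). For S1PR3 the closest were TIMM13, ERF and AKT2, with r of 0.969, 0.960 and 0.960. These values are a description over libraries that fall into 6 groups. TIMM13, ERF and AKT2 all lie on chromosome 19. They were lowest in clone 3.6, at 27.4, 65.7 and 112 CPM against 56.0, 102 and 178 in WT. S1PR3 had no count in the 3 libraries of that clone. Since these genes were picked for their likeness to S1PR3, their low level there follows from the choice and nothing is read from it.

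The genes next to LPAR1 and S1PR3 were examined within 500 kb. ECPAS, the nearest tested neighbour of LPAR1 at 446275 bp, was called in no clone. Near S1PR3, CKS2, a small subunit that binds cyclin-dependent kinases, was called lower in 4 clones and ENSG00000224945 in 1. SHC3, an adaptor protein, was called higher in 2 clones and SECISBP2 in none. Background calls were 7.84% lower and 11.5% higher over gene-by-clone comparisons.

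The lists of TWIST1 peaks, from 1 ChIP library per line, placed a peak within 3000 bp of the 5′ end of 8 of 10 receptors in MDST8 and of 6 of 10 in LoVo. Such peaks were common, at 70.8% of 20046 protein-coding genes in MDST8 and 57.2% in LoVo. The authors kept peaks at a p-value below 0.05, and no receptor peak had a q-value of 0.05 or less (lowest 0.279, LPAR2). Few genes had such a peak, 0.47% of protein-coding genes in MDST8 and 0.36% in LoVo. LPAR4 had no peak in either line.

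S1PR3 had 2 MDST8 peaks and no LoVo peak. The first, at 88990811 to 88991041 on chromosome 9, had its summit 87 bp past the 5′ end and a fold enrichment of 2.29. The second, at 88988548 to 88989083, had its summit at -1866 bp, upstream of the gene, and a fold enrichment of 2.68. The upstream summit with 50 bases on either side (chr9:88988947-88989047, plus strand) is shown because it holds 2 CANNTG, both CAATTG, in capitals.
S1PR3 upstream summit: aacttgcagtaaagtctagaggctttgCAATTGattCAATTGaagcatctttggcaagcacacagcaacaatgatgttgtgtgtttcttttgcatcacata
CANNTG lay in 45.1% of such windows around all 338877 MDST8 summits, so its presence here is common.

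LPAR1 had 1 MDST8 peak at 111038046 to 111038307, with its summit 307 bp inside the gene, a fold enrichment of 2.90 and no CANNTG within 50 bp of it. LoVo listed 4 peaks around LPAR1, the summits of which lay from -2309 to 2184 bp, and none overlapped the MDST8 peak. LPAR3, scarce in MDST8, had no MDST8 peak and 2 LoVo peaks with fold enrichments of 2.29 and 2.97. S1PR1 had 3 peaks in MDST8 and 1 in LoVo, and LPAR2 had 3 in MDST8 and none in LoVo. S1PR2 was the only receptor where peaks of both lines overlapped, in 1 pair, and its LoVo peak with a summit at -61 bp (fold enrichment 2.44) covered the CATCTG shown above. The peaks were descriptive, since no replicate was available to set their error.

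**Figure D4:**
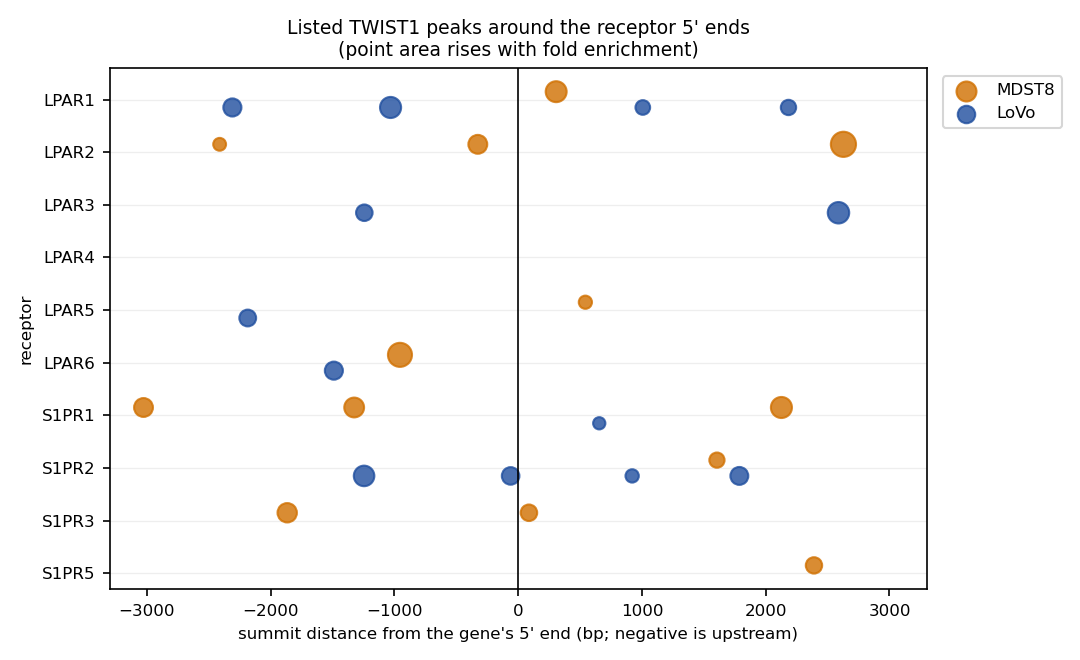
Distance of each listed TWIST1 summit from the 5′ end of the receptor gene (x axis, bp, negative upstream) for the 10 receptors (y axis), in MDST8 and LoVo, with point area rising with fold enrichment. Within 3000 bp, LPAR4 has no peak, S1PR3, LPAR2 and S1PR5 have MDST8 peaks alone, and LPAR3 has LoVo peaks alone.

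A list of 52 genes that make, break down, carry or respond to LPA and S1P was followed beside the receptors. In LoVo 41 were tested, with 13 called higher and 7 lower by label, 48.8% of those tested against 52.7% of all genes. The median log2 fold change of the list was 0.25. Among the genes that respond to serum lysophospholipids, 4 of 6 were called higher and none lower, where 26.6% of all genes were higher and 26.1% lower. EGR1, an immediate early transcription factor, went from 600 to 746 counts per control library to 14302 to 14678 in the TWIST1 shRNA-labelled libraries, a log2 fold change of 4.47 (SE 0.10, adjusted p = 2.94e-16, same edgeR test). FOS, a subunit of AP-1, changed by 3.76 (SE 0.09, adjusted p = 1.07e-15, same edgeR test), and MYL9, the regulatory light chain of smooth muscle myosin, by 3.40 (SE 0.11, adjusted p = 3.46e-14). CCN1, a secreted matrix protein, was the other member called, at 1.94, whereas CCN2 (-0.32) and SRF (-0.36) were not called.

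At the other end stood GPR35, listed here as a receptor for lysophospholipids, at -4.0 (SE 0.09, adjusted p = 2.80e-16, same edgeR test). Its counts were 1534 to 1768 in control libraries and 94 to 109 in the TWIST1 shRNA-labelled libraries. SGPP2, a phosphatase that removes S1P, changed by -2.11 (SE 0.07, adjusted p = 3.18e-14, same edgeR test). SPHK1, the kinase that makes S1P, changed by -1.58 (SE 0.12, adjusted p = 3.54e-09, same edgeR test). Of 7 G protein alpha subunits, GNAI2 was called higher and GNA12 lower. GPR55, a receptor for lysophosphatidylinositol, was at 0 in all control libraries and held 3, 0 and 7 counts in those labelled TWIST1 shRNA, at least 1.07-fold higher against the floor. S1PR4, an S1P receptor of blood cells outside the 10 members, was at 0 in WT MDST8 and held 0, 5 and 0 counts in clone 3.5, which is under the floor.

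In the clones 39 of the 52 genes were tested, and between 5 (clone 3.5) and 8 (clone 3.6) were called, 12.8 to 20.5% of those tested, where 14.7 to 27% of all genes were called per clone. No gene of the list was called the same way in all 5 clones by edgeR, as were 1.06% of all genes downward and 3.17% upward. The response genes held 17 of the calls, 12 lower and 5 higher of 30 gene-by-clone comparisons, where 7.84% were lower and 11.5% higher over all genes. MYL9 was called lower in clones 1.1, 3.2, 3.5 and 3.6, with log2 fold changes from -2.41 to -4.19, and higher in clone 2.2, at 1.42 (SE 0.08, adjusted p = 2.17e-17, edgeR). CCN1 and CCN2 were called lower in the same 4 clones, with log2 fold changes from -0.64 to -2.28 and from -1.26 to -1.91. In clone 2.2 they were 0.01 and -0.14. EGR1 was called higher in these 4 clones, from 0.63 to 2.83, although clone 1.1 overlapped WT, and reached 0.54 in clone 2.2 (adjusted p = 0.0847, edgeR). ARRB1, the beta-arrestin that uncouples activated receptors, was called higher in these 4 clones, from 1.43 to 2.02, and lower in clone 2.2, at -1.02. CCN1, CCN2 and ARRB1 were named after their values were seen, as were GNAI2, GNA12, SRF and LIPH.

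ENPP2, the secreted enzyme autotaxin that makes LPA, lay under the filter in MDST8 and was also named after its values were seen. It held 40 to 56 counts in WT libraries and 1 to 15 in clone libraries, which did not overlap with WT in any clone. All 15 clone libraries lay below all WT libraries for 14.2% of the genes tested in MDST8. In LoVo, ENPP2 held 0 to 3 counts in control and 9 to 14 in the TWIST1 shRNA-labelled libraries. LIPH, another enzyme that makes LPA, was called lower in LoVo, at -0.66. In MDST8 it held 0, 1 and 0 counts in WT, 0 to 2 in the libraries of clones 1.1, 3.2, 3.5 and 3.6, and 63, 43 and 59 in clone 2.2. The ratio of clone 2.2 over WT was 164 (95% interval 29 to 6517, from 165 and 1 counts).

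**Figure D5:**
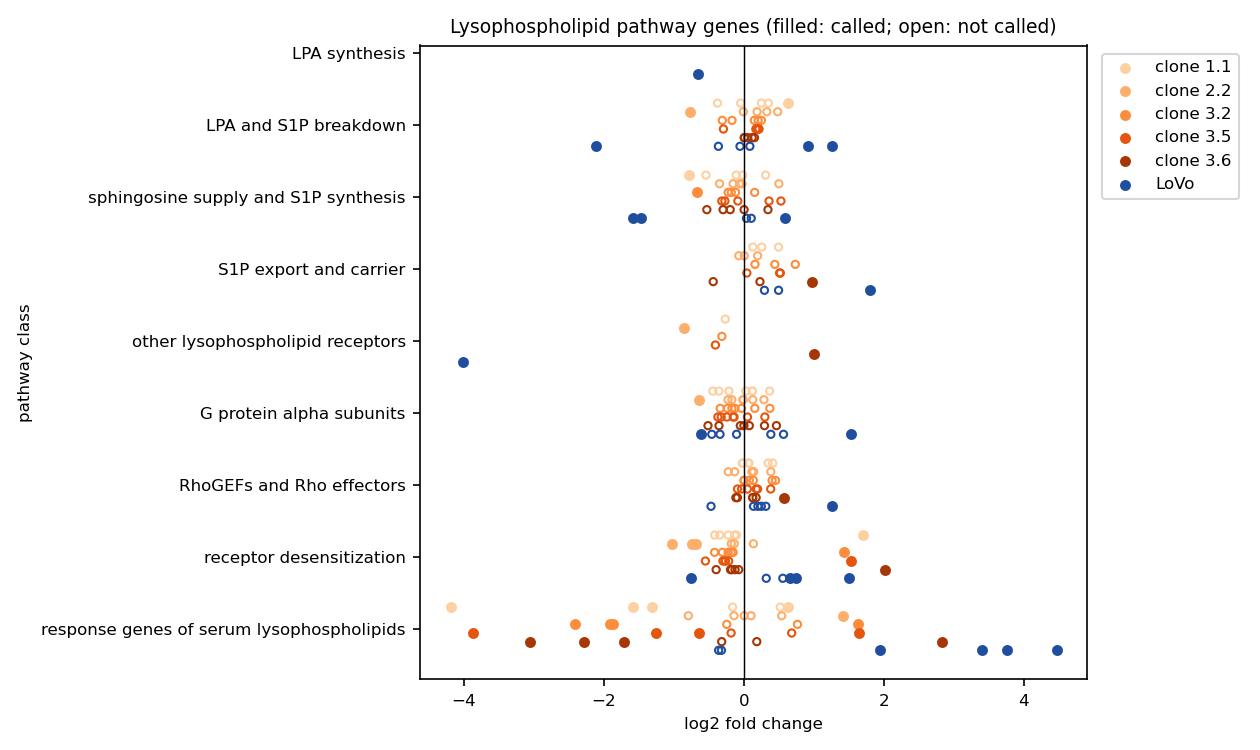
The log2 fold change (x axis) of the tested pathway genes by class (y axis), with a colour for each clone and for LoVo and filled points for called genes. The response genes span the widest range, from MYL9 at -4.19 in clone 1.1 to EGR1 at 4.47 in TWIST1 shRNA-labelled LoVo libraries.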

How the data were processed

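There were 3 RNA-seq libraries for each of MDST8 WT, 5 TWIST1 knockout clones and 2 LoVo groups, and ChIP-seq gave 1 TWIST1 peak list per line. The authors deposited counts of fragments per gene, unnormalized, made with Trim Galore 0.6.6, HISAT2 2.1.0, SAMtools 1.6 and featureCounts 2.0.0 on GENCODE genes of hg38, without strand. Exon length in bp, another deposited value, gave CPM per kb. For each peak the authors deposited a score, a fold enrichment (a ratio), a -log10 p-value and q-value, and a summit offset in bp, from Bowtie2 2.4.5 and MACS2 2.2.7.1, and hg38 is named in the submitters' processing notes. All peaks lay within the hg38 chromosome lengths.

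Genes with a geometric mean of RPM + 1, minus 1, of at least 1 in a line were kept (13706 in MDST8, 14270 in LoVo). Counts were TMM-normalized and tested by quasi-likelihood in edgeR 4.0.16, with 18 MDST8 libraries in one fit and 6 LoVo libraries in another, and Benjamini-Hochberg adjustment over all genes tested. CPM used TMM factors over all 24 libraries. In simulated counts with 200 changed genes per comparison at a log2 fold of 1.5, 100% were called in each MDST8 clone and 99.5% in LoVo. False calls numbered 2 to 6 per clone and 0 in LoVo. Genes with the lowest mean levels were left out of the changed genes, so the recovery may not hold for receptors near the filter. Intervals cover counting error only, and the 95% intervals for ratios of counts come from exact binomial intervals. The named genes were all 10 receptors, pathway genes with one direction of call in every clone, the 3 largest and 3 smallest called pathway changes in LoVo, pathway genes at 0 in a group, neighbours and the 3 most alike genes. Alternatives were DESeq2 1.42.0, limma 3.58.1 (voom, or log2(count + 1)), RLE factors, other filters, a replicate block, left-out libraries and other peak windows or thresholds. Members, lists and tests were chosen with earlier results of these data known. Gene symbols were found for 62639 of 62703 identifiers, all 10 receptors matched the RefSeq promoter table, and 0 value columns lacked a sample.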

Additional observations from a re-analysis of the deposited data

Results flagged for a closer look

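By the labels, LPAR1 and LPAR3 differed in opposite directions in the lines. In every clone library both lay below every MDST8 WT library, and in every LoVo library labelled TWIST1 shRNA both lay above every shRNA control library. The LoVo log2 fold changes were 0.97 for LPAR1 and 10.65 for LPAR3, and the latter rests on 1 count in the control group. The difference between the lines was not tested. LPAR1 in the clones was among the values the family was selected on, and its LoVo value is not independent. LPAR3 passed the LoVo filter only through its high group, so nothing is read from the share that follows. Among genes tested in both lines, 6.61% (802 of 12132) showed this pattern, and LPAR3 was not among those tested in MDST8. The opposite directions rest on the LoVo labels, which the TWIST1 counts go against. If those labels were exchanged, both genes would be lower in both lines. The paper lists LPAR1 among genes lowered in both knockout and knockdown cells.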

How the results depend on the processing

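No called value changed sign. Of values that were not called, LPAR2 changed sign in LoVo (-0.05 to 0.09 with 1 library left out, -0.04 to 0.03 under other settings, against 0.02) and in clone 3.6, and LPAR4 did so in clone 3.5. Counts of receptor-by-clone calls ran from 19 to 32 over the other settings and from 22 to 23 with 1 library left out, against 23. Calls of receptors in LoVo ran from 4 to 5 with 1 library left out. They moved from 5 to 3 with a geometric mean of RPM without an offset, which leaves LPAR3 and LPAR6 untested, and to 6 with no filter, where S1PR2 was added. Pathway genes with one direction of call in all 5 clones moved from 0 to 1 with no filter and to 1 with filterByExpr (ENPP2 in both, lower), and ranged from 0 to 1 with 1 library left out (EGR1, higher, without clone 2.2 replicate C). Receptors with a listed MDST8 promoter peak moved from 8 to 5 within 1 kb, to 4 at p of at most 0.001 and to 0 at q of at most 0.05, and in LoVo from 6 to 3, 3 and 0. Under these settings 46.7%, 23.3% and 0.47% of protein-coding genes had a peak in MDST8, and 30.5%, 17.3% and 0.36% in LoVo. The cause was not tested beyond fewer or more genes or peaks entering. For single genes, 703 of 708 values with a library left out and 357 of 364 under other settings kept their call or moved less than the replicate spread. With limma on log2(count + 1), all-gene calls in clone 3.6 were 2687 higher and 1098 lower against 2099 and 1605, with a median shift of 0.13 (log2), and those in clone 3.2 were 1763 and 611 against 1491 and 835. LPAR2 in clone 3.6 went from -0.03 to 0.10 there, and 1 receptor was called higher in clone 3.5 against 2. LPAR5 lost its LoVo call in 2 of 6 fits without a library. The replicate letters did not pair the libraries: the correlation of deviations ran from -0.146 to 0.120 over 45 pairs with the same letter, with 3 of 18 libraries closest to their own letter. With a replicate block, receptor-by-clone calls stayed at 23, receptors differing among clones at 5, such pathway genes at 0 and neighbour calls at 5, and no paired analysis was possible because the LoVo groups share no replicate numbers. Low counts limit S1PR3, S1PR5, LPAR4 and LPAR6, and the design has 1 shRNA contrast and 5 clones.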
